A study of Mus musculus with 11 samples.

Results

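Slc44a5 is a mouse gene of the choline transporter-like family. It was described here by the 2 transcripts in the count table that could be given its name, uc008rul.1 and uc008ruk.1. They were 2 of the 63244 UCSC transcripts counted and 2 of the 29599 transcripts that had at least 1 count in at least 5 libraries. Both were chosen because they were higher after sleep deprivation, so the difference between the groups is given as a description. Where they are counted among transcripts past a threshold, this follows from that choice and is no test of them. By the names they carry in the study's list of transcript variants, uc008rul.1 is the coding transcript of Slc44a5 in GENCODE and uc008ruk.1 a retained-intron transcript of it.

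The data are counts of RNA bound to ribosomes in the hippocampus of male CaMKII-Cre:Ribotag mice aged 2 to 3 months. In these animals Cre under the CaMKIIα promoter turns on a hemagglutinin-tagged form of the ribosomal protein Rpl22, and an antibody to the tag pulls down the ribosomes of excitatory neurons together with their RNA. Non-sleep deprived (NSD) mice served as controls, while sleep deprived (SD) mice were kept awake for 5 h by gentle handling from the start of the light period. Mice of both groups carried the same alleles and were killed at the same time of day, and there were 5 NSD and 6 SD libraries with the hippocampi of 2 mice pooled in each. Slc44a5 was measured in tissue-level pulldowns, so more cells that express a transcript and more ribosome-bound RNA in each cell cannot be told apart.

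Proteins of the Slc44a family span the plasma membrane or internal membranes many times, and several members carry choline. Choline is the head group of phosphatidylcholine and sphingomyelin, the precursor of acetylcholine in cholinergic neurons, and the source of the methyl donor betaine. Neurons make little choline of their own and take it up, which is why the transporters of this family are of interest in brain tissue, although the substrate of Slc44a5 is less well described than that of Slc44a1.

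In the GENCODE vM21 annotation of GRCm38 (mm10), Slc44a5 lies on the plus strand at chr3:153973436-154271722. The coding transcript has 22 exons, a length of 4098 bases and a product of 710 residues. The retained-intron transcript has 9 exons and 5189 bases, and it begins far inside the gene, at chr3:154257474-154271722. The 2 transcripts share 2609 bases, including 7 exons that are the same from end to end. Reads that lay wholly on shared bases were set aside as ambiguous. In the authors' counting mode, a read that also touched bases of a single transcript went to that transcript. The counts of uc008rul.1 thus came from reads that touched the 1404 bases found in the coding transcript alone, all of them 5′ of exon 14. The counts of uc008ruk.1 came from reads that touched the 2580 bases found in the retained-intron transcript alone. These are 274 bases in front of exon 14 and 2306 bases of an intron kept next to the last exon. All of them lie in introns of the coding transcript, so unspliced or partly spliced RNA of the gene would be counted as uc008ruk.1 too. Such RNA and the retained-intron transcript cannot be told apart here. These lengths are those of GENCODE and were not checked against the UCSC models that the authors counted on.

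**Figure D1:**
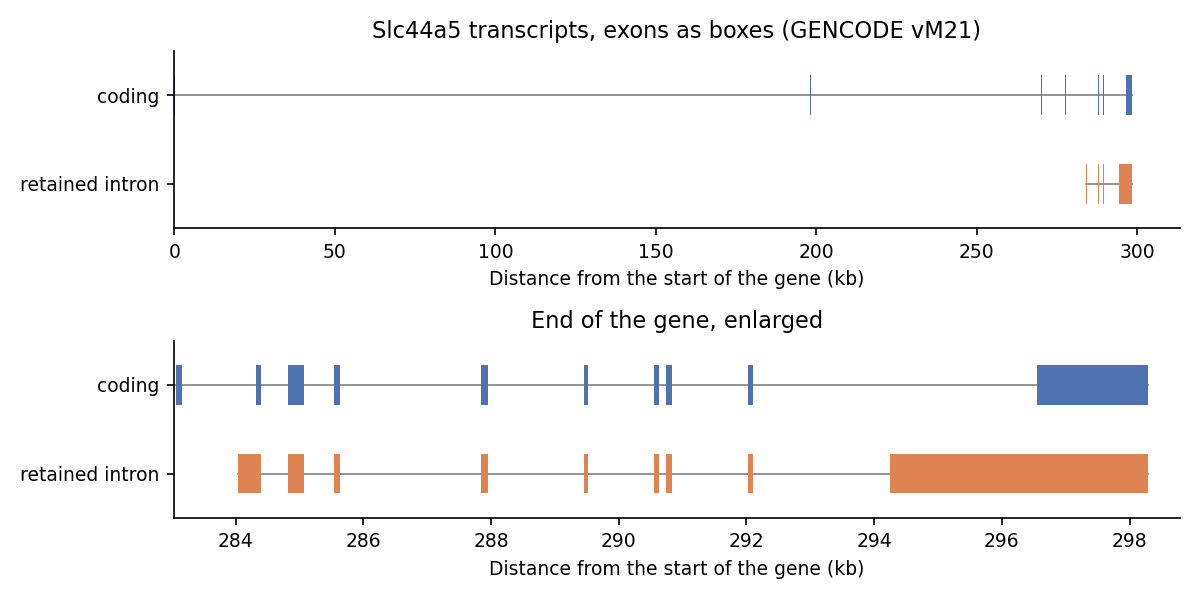
Exons of the coding transcript (blue) and the retained-intron transcript (orange) as boxes to scale, by distance from the start of the gene in kb, for the whole gene above and for its end below. The retained-intron transcript starts just before exon 14 of the coding transcript, and its last box is longer by the retained intron.

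The sequences shown are the bases before the start of the gene, which lie in neither transcript, and the start of the retained-intron transcript. The first is the promoter of Slc44a5 from RefSeq (GRCm38.p6), the 250 bases before the start of the gene at chr3:153973186-153973435 on the plus strand, with CpG dinucleotides in capitals. The second is the start of the retained-intron transcript from GENCODE vM21 at chr3:154257474-154257773 on the plus strand, in which the 274 bases in lower case are particular to the retained-intron transcript and the 26 bases in capitals open exon 14 of the coding transcript. Both read 5′ to 3′.
Slc44a5 promoter: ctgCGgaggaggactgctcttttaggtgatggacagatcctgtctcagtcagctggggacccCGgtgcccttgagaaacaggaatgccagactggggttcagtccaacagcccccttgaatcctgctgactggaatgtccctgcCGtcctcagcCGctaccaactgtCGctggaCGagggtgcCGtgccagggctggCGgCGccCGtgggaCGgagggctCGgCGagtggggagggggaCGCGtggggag
Retained-intron transcript start: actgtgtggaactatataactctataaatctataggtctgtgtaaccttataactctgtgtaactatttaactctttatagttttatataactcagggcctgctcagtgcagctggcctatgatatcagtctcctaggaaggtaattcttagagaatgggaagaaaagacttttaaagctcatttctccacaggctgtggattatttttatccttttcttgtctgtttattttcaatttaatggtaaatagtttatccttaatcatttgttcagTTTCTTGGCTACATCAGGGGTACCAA

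The promoter held 15 CpG dinucleotides and 65.2% G and C, against medians of 6 and 52.4% over all 32817 promoter windows of the same length, and 72.7% of promoters had fewer CpG. The 274 bases at the start of the retained-intron transcript held 0 CpG and 33.2% G and C, and they end in AG, the dinucleotide that stands before an exon at a splice acceptor. Of 6 motifs searched on both strands of the promoter, none had an exact match. They were the GC box GGGCGG (in 32.7% of promoters), the cAMP response element TGACGTCA (1.55%), its core TGACG, which lies within the whole element (17.7%), the E-box CACGTG (6.02%), the TATA box TATAAA (12.4%) and CCAAT (33.8%). The lack of a match says only that these letters are not in the window.

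Libraries held between 22074914 and 29549339 reads counted on transcripts, while 37.25% to 51.95% of the reads were ambiguous and 9.97% to 27.64% fell outside annotated transcripts. The share outside transcripts was highest in NSD replicate 2 (27.64%) and SD replicate 1 (21.13%), and these libraries are followed below because each had the lowest Slc44a5 of its own group. In NSD replicate 2, 12.3% of reads also lacked a unique alignment, against 5.884% to 6.227% in the other libraries. Of the marker genes with a name, Camk2a and Neurod2 of excitatory neurons summed to 304.2 to 389.1 CPM in NSD and 284.4 to 453.9 CPM in SD libraries. The oligodendrocyte gene Mbp was also present, at 167.4 to 194.8 CPM in NSD and 178.2 to 229.8 CPM in SD, and no marker of astrocytes or microglia had a name.

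Both Slc44a5 transcripts were higher in every SD library than in any NSD library. CPM values are counts scaled to a common library size with upper-quartile factors, per 1000000 reads. uc008rul.1 was at 50.9, 77.3, 60.5, 66.5 and 63.6 CPM in NSD replicates 2, 3, 4, 5 and B. It was at 81.2, 137.3, 102.8, 130.1, 117.1 and 124.7 CPM in SD replicates 1, 2, 3, 4, 6 and D. The groups did not overlap, though SD replicate 1 came within a factor of 1.051 of the highest NSD library. The mean rose from 63.8 ± 9.56 CPM (standard deviation, n = 5) to 115.5 ± 20.6 CPM (standard deviation, n = 6), a log2 fold change of 0.86 with a standard error of 0.127, or 1.812-fold. With 1230 to 1788 reads behind each NSD value and 2390 to 3471 behind each SD value, counting error was 2.56% and 1.82% of a value, and the spread between libraries was 15.0% and 17.8%.

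uc008ruk.1 had the same order of groups at a somewhat lower level. It was at 45.3, 59.9, 49.5, 53.4 and 54.5 CPM in NSD replicates 2, 3, 4, 5 and B. In SD replicates 1, 2, 3, 4, 6 and D it was at 63.1, 111.7, 81.2, 95.4, 92.8 and 95.4 CPM. NSD replicate 2 and SD replicate 1 were again the lowest libraries of their groups, and NSD replicate 3 and SD replicate 2 again the highest. The mean rose from 52.5 ± 5.50 CPM (standard deviation, n = 5) to 89.9 ± 16.4 CPM (standard deviation, n = 6), a log2 fold change of 0.78 with a standard error of 0.120, or 1.711-fold. Read counts were 1095 to 1387 in NSD and 1858 to 2654 in SD libraries. Summed over both transcripts, Slc44a5 rose from 116.3 ± 15.0 CPM to 205.5 ± 36.7 CPM, and the means stood in a ratio of 1.767.

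**Figure D2:**
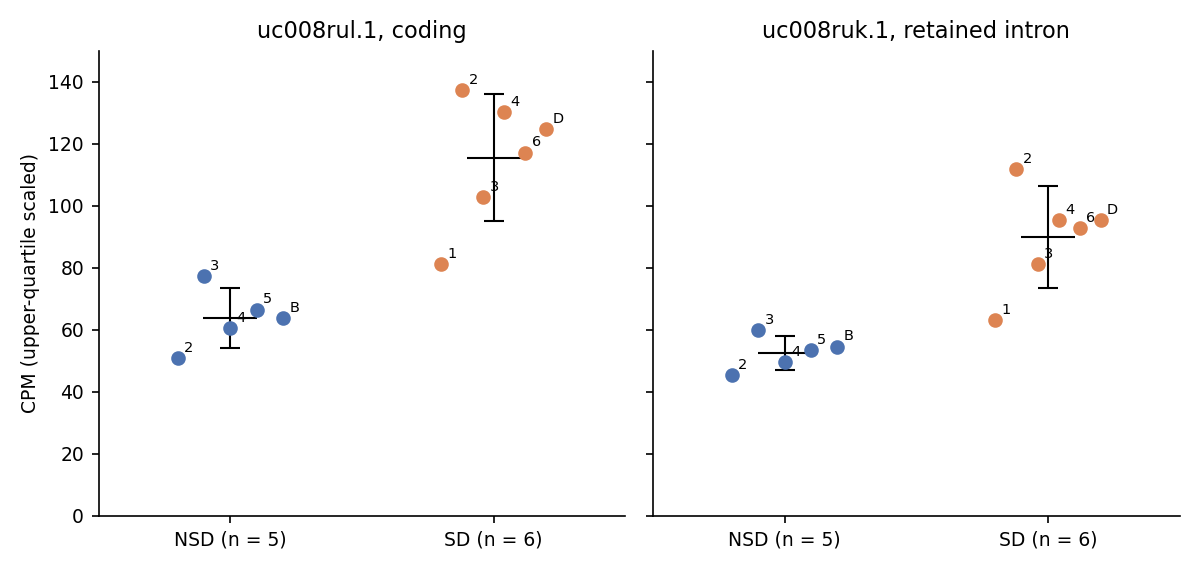
CPM of uc008rul.1 (left) and uc008ruk.1 (right) in each library, 1 point a library labelled with its replicate, in NSD (blue, n = 5) and SD (orange, n = 6); bars are the mean ± standard deviation. All 6 SD libraries sit above all 5 NSD libraries, and SD replicate 1 is the closest to them.

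How wide the gap between the groups was depended on the scaling. With the library total in place of upper-quartile factors, uc008rul.1 ran from 55.7 to 72.2 CPM in NSD and from 96.9 to 126.2 CPM in SD, and the lowest SD library stood 1.341-fold above the highest NSD library. The spread within groups was then 9.80% and 8.96% of the mean. For uc008ruk.1 the ranges were 49.0 to 56.0 CPM and 75.3 to 102.8 CPM, with a gap of 1.344-fold. TMM factors gave gaps of 1.175-fold and 1.178-fold. The ratio of the group means moved little, from 1.775 to 1.812 for uc008rul.1 and from 1.673 to 1.712 for uc008ruk.1 over the 3 scalings.

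Across all 29599 transcripts, 15 passed a false discovery rate of 0.05 in edgeR's quasi-likelihood test (13 higher and 2 lower in SD), or 0.0507%. In 136 transcripts, or 0.459%, every SD library lay above every NSD library. With 1 library left out the number that passed ran from 0 (without SD replicate D) to 78 (without SD replicate 1), so the first set depended on single libraries. With all libraries, both Slc44a5 transcripts were in each of these sets, which follows from their being chosen on this contrast. Among the 8235 transcripts with a mean of at least 5 CPM, their fold changes ranked 11th and 15th in size. The biological coefficient of variation that edgeR gave them, 15.12% for uc008rul.1 and 14.41% for uc008ruk.1, was above the median of 13.14% of those transcripts.

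In the fit used here, Slc44a5 was the gene of the study's list of transcript variants with more than 1 transcript past the threshold. Over all transcripts tested 0.0507% passed a false discovery rate of 0.05, and over those with a name 0.578%. Of 54 listed genes with at least 2 transcripts tested, 5 had at least 1 transcript past it and 1 had at least 2. The study drew up that list on these samples, so the count is no independent evidence. In the alternative fits between 0 and 5 genes had at least 2 such transcripts. It was 0 genes when NSD replicate 4, NSD replicate B, SD replicate 6 or SD replicate D was left out. The number was also 0 in both fits over the 6 libraries numbered 2, 3 and 4.

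The proportion of the 2 transcripts changed far less than their levels, and its values in the groups overlapped. The count of uc008rul.1 divided by that of uc008ruk.1 was 1.123, 1.289, 1.223, 1.246 and 1.166 in NSD replicates 2, 3, 4, 5 and B. In SD replicates 1, 2, 3, 4, 6 and D it was 1.286, 1.229, 1.266, 1.365, 1.262 and 1.308. NSD replicate 3 lay above 4 of the 6 SD libraries. The mean ratio was 1.209 ± 0.0654 in NSD (standard deviation, n = 5) and 1.286 ± 0.0468 in SD (standard deviation, n = 6). On the log2 scale the ratio was 0.27 ± 0.078 and 0.36 ± 0.052, a difference of 0.09 that was above the standard deviation of either group. Without NSD replicate 2, the library with the lowest ratio and the most reads outside transcripts, the difference was 0.06. Counting error alone would give each library's log2 ratio a standard deviation of 0.0372 to 0.0599. The ratio is free of the scaling of the libraries.

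Per kilobase of sequence that only the one transcript has, uc008rul.1 stood at 45.4 ± 6.81 CPM in NSD and 82.3 ± 14.7 CPM in SD. The corresponding values of uc008ruk.1 were 20.4 ± 2.13 CPM and 34.9 ± 6.34 CPM. The value per length was thus higher for uc008rul.1 in both groups, under the GENCODE lengths. Reads that reached from these bases into shared ones were counted as well, so the values per length are approximate. The value of uc008ruk.1 may include unspliced RNA of the gene, and its share was not tested. Exon 10 of the coding transcript overlaps Gm42540 on the opposite strand over 113 bases, and the strand setting of the counting is not given in the sources used here, so reads there cannot be told apart by strand.

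**Figure D3:**
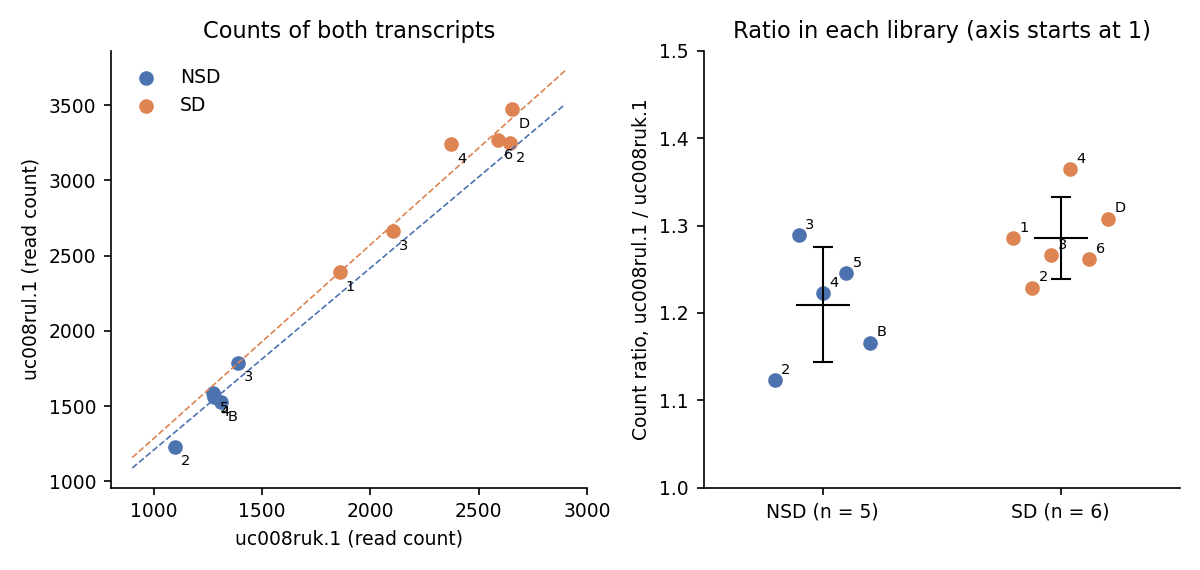
Left, read counts of uc008rul.1 against uc008ruk.1 in each library, with dashed lines at each group's mean ratio; right, their count ratio in each library with the mean ± standard deviation (NSD blue, n = 5; SD orange, n = 6). The ratios run from 1.123 to 1.289 in NSD and from 1.229 to 1.365 in SD and overlap.

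Within groups the 2 transcripts rose and fell together from library to library, a measure that was not used to choose them. After each group's mean was removed, the log2 CPM of the 2 transcripts correlated over the 11 libraries with Pearson's r = 0.968 (two-sided exact permutation test within groups, p = 4.63e-05, adjusted p = 0.000278 over 6 relations). Spearman's rho was 0.955 (exact permutation p = 0.000116, adjusted p = 0.000694). Without SD replicates 2 and 4, the libraries farthest from the median level of uc008rul.1, r was 0.974 (exact permutation p = 0.000694). Without NSD replicate 2 and SD replicate 1, the libraries farthest from the median deviation, it was 0.927 (exact permutation p = 0.00208). In the 6 SD libraries alone r was 0.983 (exact permutation p = 0.00278) and rho 0.943 (exact permutation p = 0.0167), and no correlation was computed over the 5 NSD libraries alone, since 6 were required. With library totals in place of upper-quartile factors r was 0.880 (exact permutation p = 0.000856).

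Many other transcripts also followed Slc44a5 under upper-quartile scaling, and few did under library totals. Under upper-quartile scaling, the other transcripts with a mean of at least 5 CPM had a median r of 0.783 to the mean of both Slc44a5 transcripts, and 1020 of them (12.4%) were over 0.9. Under library totals the median was 0.022 and 2 transcripts (0.0243%) were over 0.9. Among the 8234 transcripts other than itself, uc008ruk.1 ranked 19th in likeness to uc008rul.1 under upper-quartile scaling and 12th under library totals. uc008rul.1 ranked 9th and 4th in likeness to uc008ruk.1.

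As a reference, 20 pairs of transcripts of 18 other genes on the variant list had both members at 5 CPM or more. Their within-group r ran from -0.778 to 0.909, with a median of 0.554, and 0 of the 20 exceeded the Slc44a5 pair. With library totals the median was 0.349, the highest was 0.941 and 3 of the 20 exceeded the Slc44a5 pair. The place of Slc44a5 at the top of these pairs therefore held under upper-quartile and TMM factors and was lost under library totals.

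The level of Slc44a5 within groups moved with the quality measures of the libraries. The mean log2 CPM of both transcripts fell as the share of reads outside annotated transcripts rose (r = -0.835, two-sided exact permutation p = 0.000532, adjusted p = 0.00116 over 6 relations; rho = -0.791). Without NSD replicate 2 and SD replicate 1, r was -0.761, and with library totals over all 11 libraries it was -0.619 (exact permutation p = 0.042). It rose with the share of ambiguous reads (r = 0.757, exact permutation p = 0.000579, adjusted p = 0.00116; rho = 0.682; r = 0.748 without the same 2 libraries). It fell along the first principal component of all 8235 transcripts, which was computed over all libraries and carried 67.17% of their variance (r = -0.885, exact permutation p = 0.000961, adjusted p = 0.00144; rho = -0.809; r = -0.835 without SD replicates 1 and 4).

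Its relation to the number of counted reads did not pass (r = 0.599, exact permutation p = 0.0769, adjusted p = 0.0923; rho = 0.536; r = 0.646 without SD replicates 6 and D). After the first principal component was removed from both transcripts, they still correlated with r = 0.874 (exact permutation p = 0.00102), and uc008ruk.1 then ranked 14th in likeness to uc008rul.1. The difference between the groups was as large without the 2 libraries with the most reads outside transcripts, at a log2 fold change of 0.85 for uc008rul.1 and 0.79 for uc008ruk.1. With the share of reads outside transcripts as a covariate the fold changes were 0.76 and 0.69.

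**Figure D4:**
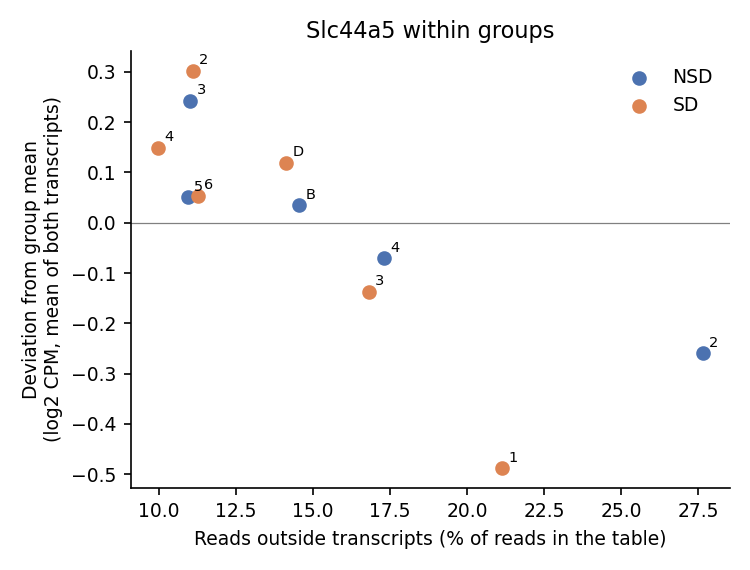
Deviation of Slc44a5 from its group's mean, as log2 CPM averaged over both transcripts, against the share of reads outside annotated transcripts in percent, 1 point a library (NSD blue, SD orange). NSD replicate 2 at 27.64% and SD replicate 1 at 21.13% are the lowest libraries of their groups, and r over the 11 libraries is -0.835.

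The named transcripts whose deviations were most like those of Slc44a5 were Gpc1, a glypican on the cell surface (r = 0.976), Pygb, the brain glycogen phosphorylase (0.972), the transcriptional repressor Bcl6 (0.971), Cachd1, a protein related to calcium channel subunits (0.971), and Tcp11l2 (0.970), over 11 libraries and 1423 named transcripts. Their log2 fold changes between the groups were small, from 0.16 to 0.23. Those least like it were 4930570G19Rik (r = -0.884), Fam120b (-0.868), the transcription factor Bcl11a (-0.853), the phosphoglucomutase Pgm1 (-0.853) and the small nucleolar RNA host gene Gas5 (-0.850). These coefficients share the scaling of the libraries. With library totals Bcl6 was at 0.828 and Tcp11l2 at 0.868, and the 5 negative ones lay between -0.682 and -0.541.

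Few other genes of choline metabolism could be followed, because the naming of transcripts covered 5 of the 41 genes listed. That is too few for a statement on the pathway, and transcripts were more likely to have a name if they had a low p in the authors' own comparison. Among choline transporters, 1 of 11 had a name, Slc44a5 itself. Of the 4 other named transcripts, 0 passed a false discovery rate of 0.05 in edgeR's quasi-likelihood test and 1 had an unadjusted p under 0.05. Over all transcripts tested, the shares were 0.0507% and 4.45%.

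That one was Chpt1, the cholinephosphotransferase that completes phosphatidylcholine synthesis, which measured 13.5 ± 0.761 CPM in NSD and 16.2 ± 1.21 CPM in SD (log2 fold change 0.26, SE 0.0919, edgeR false discovery rate 0.797). Lpcat4, which re-acylates lysophospholipids, was at 46.4 ± 3.31 and 41.4 ± 1.75 CPM (-0.16, SE 0.0784, edgeR false discovery rate 1.0). It passed in 2 of the alternative fits, the stricter filter on low counts and the fit with the first principal component added, and Chpt1 passed in the latter. Gdpd1, a lysophospholipase D, was at 144.5 ± 14.3 and 162.0 ± 23.8 CPM (0.16), and Smpd2, a sphingomyelinase, at 0.262 and 0.418 CPM (0.65, SE 0.333), both with an edgeR false discovery rate of 1.0.

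Among solute carriers with a name and a mean of at least 5 CPM, 33 transcripts of 32 genes, the 2 past a false discovery rate of 0.05 were those of Slc44a5, which were chosen on this contrast. Over all transcripts 0.0507% passed, and over those with a name 0.578%. Slc25a38, a mitochondrial glycine carrier used in heme synthesis, came next in size, at 23.9 ± 1.67 CPM in NSD and 34.3 ± 4.85 CPM in SD (log2 fold change 0.52, edgeR false discovery rate 0.0811). It passed in 9 of the 22 alternatives, which were TMM factors (0.00904), DESeq2, both other filters, the likelihood ratio test, both covariates taken from the libraries, the fit without SD replicate 1 and the fit without NSD replicate 2 and SD replicate 1. Over all 22 its adjusted p ran from 6.73e-07 to 1.0. The other named solute carriers had log2 fold changes down to -0.26.

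The neighbour of Slc44a5 on the 5′ side is Acadm, a mitochondrial acyl-CoA dehydrogenase gene on the opposite strand, with 28803 bases between the genes. Acadm measured 41.2 ± 2.44 CPM in NSD and 45.6 ± 5.12 CPM in SD (log2 fold change 0.15, SE 0.0906, edgeR false discovery rate 1.0).

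Markers of other neurons were set beside Slc44a5, and 1 of their named transcripts, that of Sox11, passed the test, as did 0.0507% of all transcripts and 0.578% of those with a name. Of 5 marker genes of granule and immature neurons 3 had a name. Their summed level was 93.8 to 108.5 CPM in NSD and 112.7 to 166.0 CPM in SD, so that the groups did not overlap. Over all transcripts tested, 0.459% had every SD library above every NSD library. SD replicate 1 was the lowest and SD replicate 2 the highest SD library, as for Slc44a5. The NSD order differed: the sum was lowest in replicate 4 and highest in replicate 5, and Slc44a5 in replicates 2 and 3. Most of that sum was Sox11, a transcription factor of immature neurons, at 71.7 ± 6.05 CPM in NSD and 113.3 ± 15.7 CPM in SD (log2 fold change 0.66, SE 0.103, edgeR false discovery rate 0.0139). No transcript at all passed in the fit without SD replicate D. The related factor Sox4 was at 25.5 ± 1.52 and 30.8 ± 3.84 CPM (0.27, edgeR false discovery rate 0.797), and Igfbpl1 at 2.07 ± 0.909 and 0.817 ± 0.478 CPM (-1.35, edgeR false discovery rate 0.238). The part of these cells in the difference of Slc44a5 was not tested.

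Markers of inhibitory and septal neurons had lower values in SD, with no transcript past the test. Of 12 GABAergic and septal marker genes 7 had a name (Gad2, Slc32a1, Dlx2, Dlx6, Zic1, Zic2 and Zic5), and all 9 of their transcripts had a lower mean in SD, with 0 of them past a false discovery rate of 0.05 in edgeR. Of all transcripts tested 48.0% were lower in SD and 0.0507% passed, and of those with a name 44.5% and 0.578%. Since genes had a name more often if they had a low p in this contrast, the sum is a description and is given no test. Their summed level was 28.4, 62.8, 119.1, 49.0 and 127.1 CPM in NSD replicates 2, 3, 4, 5 and B. It was 25.0, 59.9, 19.2, 20.9, 21.2 and 24.6 CPM in SD replicates 1, 2, 3, 4, 6 and D. The groups overlapped, and the means were 77.3 ± 43.7 CPM in NSD and 28.5 ± 15.6 CPM in SD. The correlation of the sum with Slc44a5 within groups did not pass (r = 0.384, exact permutation p = 0.22, adjusted p = 0.22; rho = 0.264; r = 0.592 without NSD replicates 4 and B, and -0.295 without NSD replicate 2 and SD replicate 2, the libraries farthest from the median deviation). The part of the sum in the difference of Slc44a5 was not tested.

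Both fold changes kept their size over the alternatives. The log2 fold change of uc008rul.1 ran from 0.76 to 0.93 and that of uc008ruk.1 from 0.69 to 0.85 over 22 alternative fits, which included other scalings, filters, tests and covariates and each library left out in turn. uc008rul.1 changed by more than uc008ruk.1 in every one of these fits, and since the 2 were fitted on the same libraries this is no independent support.

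**Figure D5:**
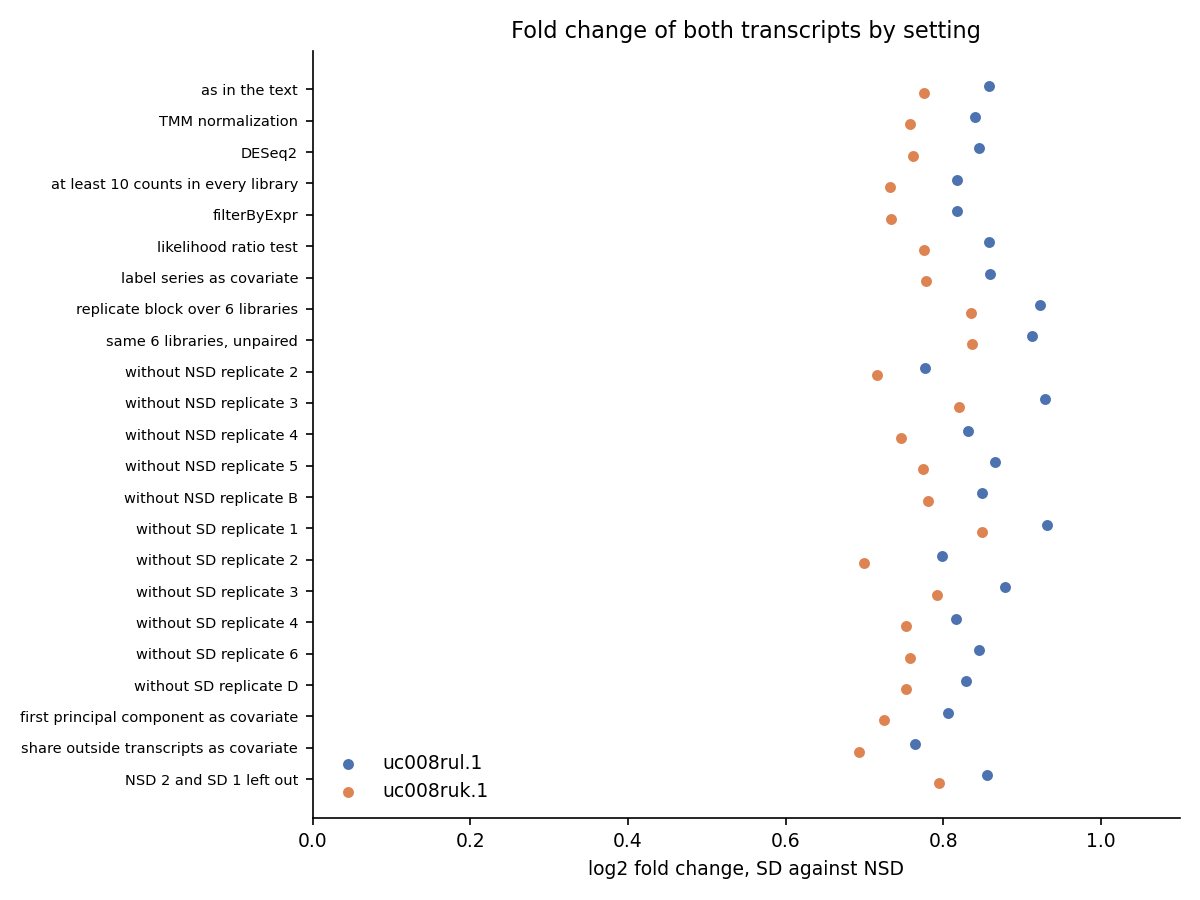
log2 fold change, SD against NSD, of uc008rul.1 (blue) and uc008ruk.1 (orange) in the fit of the text and in 22 alternative fits, on an axis that starts at 0. All values lie between 0.69 and 0.93.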

How the data were processed

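Ribosome-associated RNA was sequenced in 11 libraries, 5 NSD and 6 SD, each a pool from 2 mice. Trimming was done by the authors with Trimmomatic 0.36, alignment to mm10 with STAR 2.7.5 and counting per UCSC transcript with HTSeq. The deposited values are raw counts, with no normalization. Reads that could not be given to 1 transcript were put in an ambiguous tally. That tally and the 4 others were left out of library sizes and tests.

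Transcripts were kept if 5 or more libraries had a count, and compared with edgeR 4.0.16 in R 4.3.3 by the two-sided quasi-likelihood test after upper-quartile normalization, with Benjamini-Hochberg adjustment at a false discovery rate of 0.05. The script was tested on simulated data. log2 CPM used a prior count of 2. Within-group correlations used deviations from group means and exact permutation within groups (86400 arrangements). Likeness was computed over transcripts with a mean of at least 5 CPM. Python 3.11.15 and matplotlib 3.10.9 were used for the figures.

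Names of 2250 transcripts came from the study's supplementary tables, where the statistics of a listed transcript matched exactly 1 row. That table was at hand in part, for the transcripts with the lowest p, so transcripts without a name were not analysed here by gene. Its statistics were used for naming only. The genes named in the text were both Slc44a5 transcripts, the named members of the choline list, the 5 named transcripts most and the 5 least like Slc44a5, the listed variant genes with at least 2 transcripts past the threshold, and the 3 named Slc transcripts with the largest fold change. The named members of the cell type marker lists were given as well. Acadm was added as the neighbouring gene, and 1 listed gene is not reported here and was left out of every list and sum. The members and gene lists were chosen with earlier results of these data known. Alternatives were TMM factors, library totals, DESeq2 1.42.0, other filters and tests, covariates, a replicate block and leaving out libraries. Replicates are separate pools of mice by the labels and the study's methods. Counting error was small at this depth (1095 reads or more on each Slc44a5 transcript in every library), and it covers counting only.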

Additional observations from a re-analysis of the deposited data

Results flagged for a closer look

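In 78 groups of libraries examined, 9 held a library far from the others by Dixon's criterion, which chance meets in about 1 in 20 groups. A group was a measure or transcript named above in NSD or in SD, except the share of reads without a unique alignment. The summed GABAergic and septal markers were at 59.9 CPM in SD replicate 2, and the next highest SD library was at 25.0 CPM. In that library 6 single marker transcripts stood apart from the other SD libraries as well, and these are parts of the same sum or come from the same library, so they are not independent. Both transcripts of Gad2 were at 42.7 and 0.888 CPM (next highest 18.3 and 0.402 CPM), Slc32a1 at 2.66 CPM (0.815), Zic1 at 1.65 CPM (0.643), Zic2 at 8.79 CPM (3.91) and Igfbpl1 at 1.78 CPM (0.755). SD replicate 2 was also the SD library with the most of both Slc44a5 transcripts, and the part of one in the other was not tested. The share of ambiguous reads was 37.25% in NSD replicate 2 and 47.56% in the next lowest NSD library, and this library had the lowest Slc44a5 of its group. The sphingomyelinase gene Smpd2 was at 0.427 CPM in NSD replicate 4 and at 0.259 CPM in the next highest NSD library, a level of a few reads. Neither Slc44a5 transcript nor their ratio held such a library in either group.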

How the results depend on the processing

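The log2 fold changes of both Slc44a5 transcripts and the log2 ratio between them moved by less than the spread between libraries in every alternative. With each library left out in turn they ran from 0.78 to 0.93 for uc008rul.1, from 0.70 to 0.85 for uc008ruk.1 and from 0.06 to 0.11 for the ratio. The within-group r of the pair ran from 0.940 to 0.974. The count of transcripts past a false discovery rate of 0.05 was 15 and depended on the setting: 62 with TMM factors (51 higher, 11 lower), 133 with DESeq2 (94 and 39), 311 under a minimum of 10 counts per library (200 and 111), 191 with filterByExpr (132 and 59), 65 with the likelihood ratio test (37 and 28) and 8 with the label series as a covariate (7 and 1). It was 806 with the first principal component in the design (483 and 323), 167 with the share of reads outside transcripts as a covariate (85 and 82) and 57 without NSD replicate 2 and SD replicate 1 (42 and 15), alternatives chosen after seeing the data. With 1 library left out it ran from 0 (SD replicate D left out, with 1178 transcripts at an unadjusted p under 0.05 in edgeR) to 78 (SD replicate 1 left out). It was also 2 without NSD replicate 4, 1 without NSD replicate B, 8 without SD replicate 3 and 6 without SD replicate 6.

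With the replicate number as a replicate block over the 6 libraries numbered 2, 3 and 4, 0 transcripts passed in edgeR (467 at an unadjusted p under 0.05), against 2 in the same libraries without the block. The fold changes under the block were 0.92 and 0.84, the ratio 0.09, and the pair's r 0.995 with p = 0.167 in the exact permutation test, the smallest that 3 pairs allow. Deviations of same-numbered libraries correlated at -0.586, -0.675 and -0.721, and 0 of 3 libraries correlated best with their own number. The first principal component, with 67.17% of the variance, had opposite signs within each of these pairs. It was 17.51 and -15.08 (NSD and SD replicate 2), -13.23 and 12.26 (replicate 3) and 17.23 and -21.8 (replicate 4). These correlations therefore cannot show whether the numbers pair the samples.

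Named choline transcripts past the threshold were 0, but 1 under the filter of 10 counts per library and 2 with the first principal component in the design. With each library left out they stayed at 0 to 0. The difference in the marker sum, SD minus NSD, ran from -61.1 to -36.4 CPM with each library left out. Of 109 alternative fold changes of other named genes, 97 kept their side of the threshold and 12 newly passed it. Of 40 alternative likeness coefficients, 32 moved little and 8 moved more, 7 of them under library totals. The causes of these changes were not tested.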
